A study of Bos taurus with 14 samples.

Results

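The liver transcriptome of 3 Holstein cattle (Bos taurus; heifers or steers) was compared between day 7 and day 0 of β-cryptoxanthin supplementation, using the inner rows of the array alone. The same 3 animals make up both groups, and each received the carotenoid, an oral dose of 0.2 mg per kg body weight given on day 0. The day 0 livers are taken here as the state before supplementation. No untreated animals were analysed here. The groups were liver on day 0 (animals 58, 61 and 66) and liver on day 7 (the same 3 animals), so 6 of the series' 14 samples were used, and the other 8 were blood neutrophils. No genotype, age or method of liver sampling is given in the sources used here. Each sample was hybridised to 1 single-colour array of a custom bovine design with 192 rows of spots. Only rows 41 to 152 were kept, because the outer rows carried a signal trend that differed between the days. This left 8881 of 15208 spots per array and 8786 of 15011 probes, and 4073 of the kept probes named exactly 1 gene, for 4002 genes. All 6 arrays lay on 1 slide, with the day 0 arrays in 1 row of the slide and the day 7 arrays in another. An effect of the carotenoid, of the 7 days and of the place on the slide cannot be told apart in these samples.

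The liver makes cholesterol, fatty acids and most plasma proteins, clears drugs and nitrogen, and stores vitamin A. β-Cryptoxanthin is a carotenoid that can be cleaved to retinal, which is oxidised to retinoic acid, the ligand of the retinoic acid receptors, or reduced to retinol for storage. Cholesterol and fatty acid synthesis are set in hepatocytes largely by the SREBP transcription factors, while acute-phase proteins such as haptoglobin are made in response to cytokines. A piece of liver holds endothelial, biliary, stellate and immune cells beside the hepatocytes. In such a bulk sample, fewer cells of a type and less RNA per cell cannot be told apart.

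Each value on the array is the signal of a probe of 60 bases, so a level belongs to the stretch of transcript that the probe holds. The probes of 4 genes on which the account turns are given as the stretches that were read. They are FABP1 for fatty acid handling, HP for the acute phase, RXRA for retinoid signalling and TNNT3 for skeletal muscle. Whether these probes also match other transcripts was not tested. The probes are printed as the file gives them, in lower case throughout, with no part singled out. Each has at least 1 reading frame without a stop and none holds AATAAA or ATTAAA, the usual polyadenylation signals. Their GC content ranged from 43.3% for HP to 60% for RXRA.
FABP1: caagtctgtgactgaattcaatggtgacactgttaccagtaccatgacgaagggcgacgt
HP: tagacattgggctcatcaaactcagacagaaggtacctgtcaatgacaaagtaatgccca
RXRA: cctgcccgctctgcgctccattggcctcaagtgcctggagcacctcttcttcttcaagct
TNNT3: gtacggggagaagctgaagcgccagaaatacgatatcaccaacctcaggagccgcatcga

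The levels below are log2 signals relative to the 75th percentile of the array, so 0 is that percentile and each unit is a doubling. Changes are the mean over the 3 animals of day 7 minus day 0, with the moderated standard error of limma fitted with the animal as a block (n = 3 pairs). P-values were adjusted by Benjamini-Hochberg over 6472 probes, with 0.05 as the threshold. A probe was tested if the scanner software called it well above background on all 3 arrays of day 0 or all 3 of day 7. They measure only the spread between these 3 animals. A gene with several probes is given by its brightest, which left 3166 genes tested. The hepatocyte markers were present throughout: all 15 of those in the inner rows were well above background on all 6 arrays, and all 15 lay in the brightest of 5 equal groups of tested genes by mean signal.

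No probe passed the adjusted threshold (0 of 6472, 0.0%; limma), and 627 probes (9.69%) had an unadjusted p under 0.05, 211 of them higher and 416 lower on day 7. That split depended on the scaling: with the 75th percentile taken over the inner rows, 350 were higher and 264 lower. A total of 86 probes (1.33%) had no overlap between the 3 day 7 and the 3 day 0 levels and a mean change of at least 1.5-fold, 32 higher and 54 lower, against 16 higher and 7 lower after normexp background correction with quantile normalization. Most genes therefore stayed near their own level: 95.9% had a mean change under 1.5-fold, the median standard error was 0.117, and the median SD of the change over animals was 0.199 on the log2 scale. The changes of different animals correlated weakly over probes (Pearson's r 0.361 for animals 58 and 61, 0.354 for 58 and 66, and 0.212 for 61 and 66, over 6462 to 6465 probes that share their arrays), and 54.8 to 56.7% of probes had the same sign in a pair of animals.

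Signal and row moved with the change, and their part in the results that follow was not tested. The share of inner-row spots well above background was 75.45 to 77.45% for the day 0 arrays and 63.16 to 75.68% for the day 7 arrays, lowest on the day 7 array of animal 58. On that array 48 tested genes shared 1 lowest value of -6.88, which is a value set by the scanner software and not a level of each gene. Of the 3166 genes, 2724 were well above background on all 6 arrays, 430 entered the test through day 0 alone and 12 through day 7 alone. The median change was -0.17 in the dimmest group of the genes and 0.05 in the brightest, and 24.8% of the brightest group but 7.57% of the dimmest were higher in all 3 animals. After quantile normalization of the processed signal the brightest group had a median of -0.05, so a list of bright genes takes its sign in part from the scaling. By row, the median change went from 0.02 in rows 41 to 54 to -0.09 in rows 125 to 138. Calls at an unadjusted p under 0.05 and at least 1.5-fold varied more. In rows 41 to 54, 23 of 807 probes were higher by this rule and 11 lower. In rows 125 to 138, 2 of 816 were higher and 21 lower. Among genes named below, FASN (row 54), APOA2 (row 52) and F2 (row 53) were higher and LTF (row 47) was lower.

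**Figure D1:**
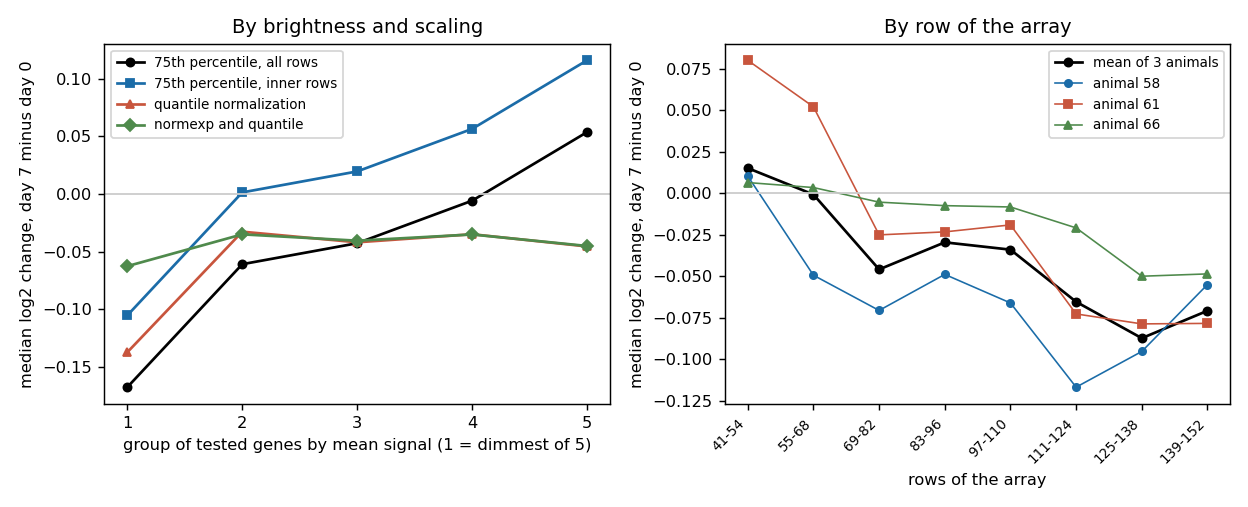
Median log2 change (day 7 minus day 0) of the tested genes, left by 5 groups of mean signal under 4 scalings and right by band of 14 rows for the mean and for each animal. With the 75th percentile the median went from -0.17 in the dimmest group to 0.05 in the brightest, and under both quantile scalings the brightest group lay at -0.05.

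Several genes of cholesterol synthesis and uptake had levels that did not overlap between the days. Of 9 genes tested for cholesterol synthesis and uptake, 8 had a positive change, and 4, DHCR7 and FDFT1 among them, were higher on day 7 without overlap, against 3.54% of all genes tested. DHCR7 encodes the reductase that completes the making of cholesterol. Its levels were 2.06, 2.23 and 1.93 in animals 58, 61 and 66 on day 0 and 2.84, 3.19 and 3.37 on day 7. Every day 7 level was above every day 0 level, a 2.09-fold difference (1.06 ± 0.16 on the log2 scale; adjusted p = 0.268). FDFT1, the squalene synthase that commits carbon to sterols, went from 2.90, 2.73 and 3.11 to 3.32, 3.48 and 3.82, also without overlap (0.62 ± 0.11, adjusted p = 0.371).

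DHCR7 and FDFT1 were at least 1.5-fold higher without overlap, the size that 0.569% of all genes reached, and neither passed the adjusted threshold. Their probes lay in rows 57 and 100. With a trend over rows removed, the changes were 1.02 and 0.59, and after normexp with quantile normalization they were 0.99 and 0.53. Other members differed less: TM7SF2, a sterol reductase, had a change of 0.23, SC5D 0.12, the lysosomal cholesterol exporters NPC1 and NPC2 0.12 and 0.01, and GGPS1, on the isoprenoid branch, -0.10. The list's median was 0.23 against -0.03 for all genes tested, and its value without animal 58 was 0.39. The array holds 17 of the 34 genes listed, and those outside the inner rows were not used here.

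Genes of fatty acid and triglyceride synthesis were uneven. Of 16 tested, 10 had a positive change, 5 were higher and 3 lower in all 3 animals, and the shares for all genes tested were 13.8% and 19.1%. FASN, the fatty acid synthase, was higher in every animal, from -0.16, 0.73 and 0.79 to 0.35, 1.5 and 2.11, but the day 7 level of animal 58 lay below the day 0 levels of both others, so the groups overlapped (1.83-fold, 0.87 ± 0.18, adjusted p = 0.382). FABP1, which carries fatty acids inside hepatocytes, moved by nearly the same amount in each animal, from 6.24, 6.67 and 6.79 to 6.73, 7.17 and 7.24 (0.48 ± 0.09, adjusted p = 0.371). Under quantile normalization the FABP1 difference was 0.29. THRSP, an inducer of lipogenic enzymes, had a mean change of 1.15 that came mostly from animal 66 (-5.26 to -2.73) and was not well above background on every day 7 array. FABP4, a fatty acid carrier of adipocytes, had a change of 1.1 ± 0.61, again with animal 66 showing most of it. ACLY and GPAM, which supply acetyl-CoA and start triglyceride synthesis, had changes of 0.19 and 0.25. SCD5 (-0.21), MGLL (-0.09) and ELOVL1 (-0.07) were lower in all 3 animals by small amounts.

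Markers of fat cells were considered beside these genes. Of 10 adipocyte markers in the inner rows, ADIPOQ, LEP, LIPE and AQP7 were not well above background on any array. Among the 6 tested, 5 had a positive change, among them THRSP and FABP4 named above, and the median was 0.32, with 0.02, 0.16 and 0.49 in animals 58, 61 and 66. Over the 4 measured on every array the median was 0.03. The summed level of the 10 ranged from 42.9 to 48.4 on day 0 and from 42.9 to 48.8 on day 7, on a linear scale where 1 is the array's 75th percentile, but GPD1 and CFD, which were bright on every array, made up nearly all of it. The other 8 summed to 0.365, 0.81 and 0.379 on day 0 and to 0.311, 0.946 and 0.763 on day 7, so the sum was higher in animals 61 and 66 and lower in animal 58. The part of fat cells in the lipid gene differences was not tested.

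All 10 apolipoprotein and lipoprotein genes tested had a positive change, and 6 were higher in all 3 animals, beside 13.8% of all genes. In the brightest group, where 7 of the 10 lie, 65.9% of genes had a positive change and 24.8% were higher in all 3 animals. The median was 0.24, and it was 0.06 under both quantile scalings. APOE, a ligand for lipoprotein uptake, went from 7.44, 7.16 and 6.35 to 7.77, 7.65 and 6.92, each animal higher by a similar amount but with overlap between the groups (0.46 ± 0.10, adjusted p = 0.382). APOA2, a structural protein of high-density lipoprotein, lay within 7.27 to 7.36 on day 0 and 7.62 to 7.74 on day 7, so the groups were separate (0.36 ± 0.09, adjusted p = 0.396). ABCA1, which exports cholesterol to nascent high-density lipoprotein, had a change of 0.45 ± 0.12. APOA1 (0.13), LCAT (0.09), PON3 (0.07) and PLTP (0.03) had smaller positive changes.

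**Figure D2:**
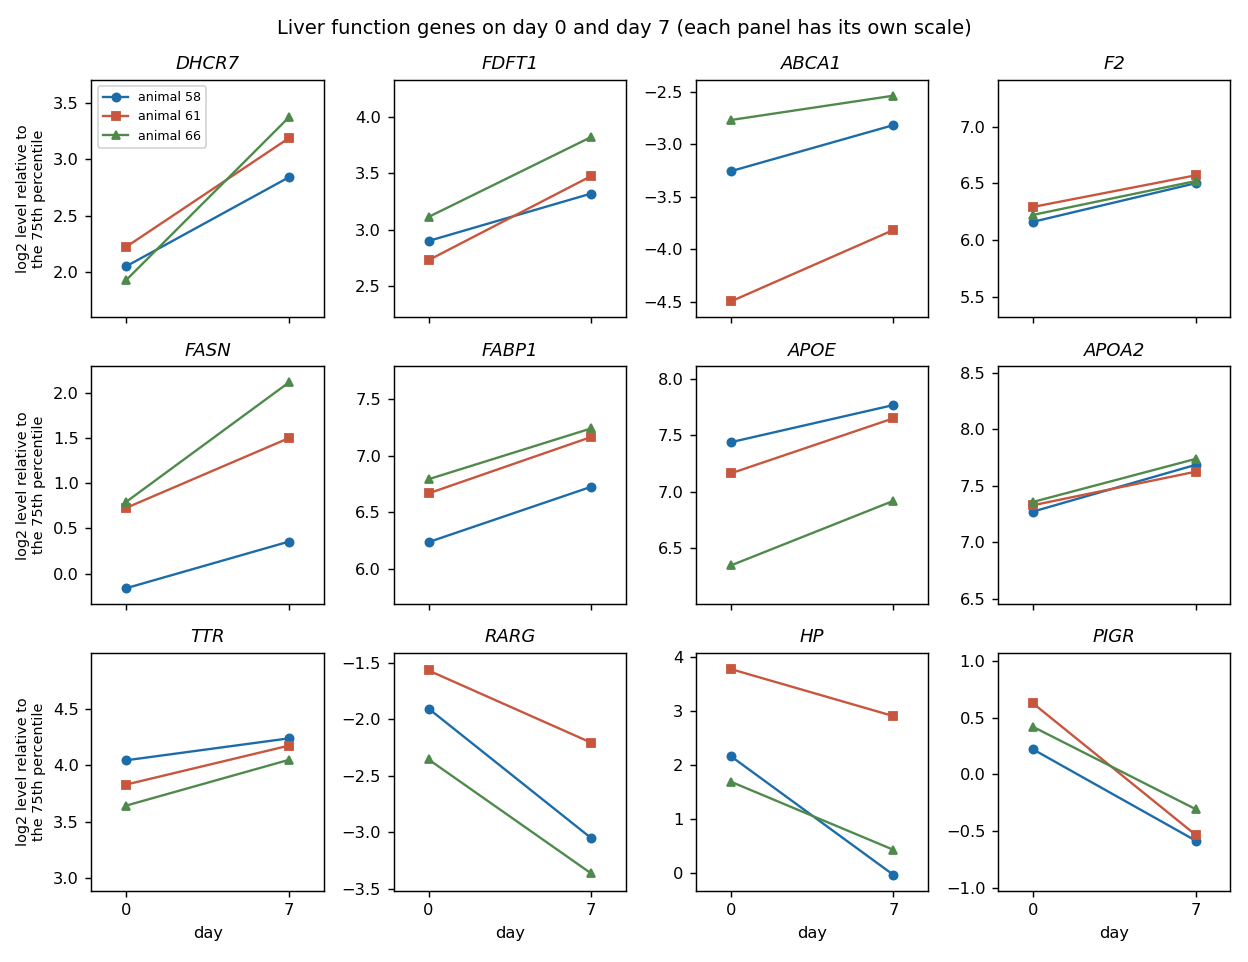
Log2 level relative to the array's 75th percentile on day 0 and day 7 for 12 liver genes, 1 line per animal, each panel with its own scale. All 3 lines of DHCR7 and FDFT1 ended above every day 0 point, while those of PIGR ended below every day 0 point and those of HP overlapped.

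Plasma proteins and hepatocyte markers leaned higher with the 75th percentile and lay near 0 with quantile scaling. The 15 hepatocyte markers had a median of 0.18, with 12 positive and 7 higher in all 3 animals (24.8% in the brightest group, where all lie), but -0.04 under both quantile scalings. The brightest group itself had a median of -0.05 under both quantile scalings. The summed level of the 15 markers ranged from 1054 to 1211 on day 0 and from 1168 to 1412 on day 7. The 21 carrier and secreted plasma proteins had a median of 0.14 and -0.01 under both quantile scalings, and 17 of them lay in the brightest group. TTR, which carries thyroid hormone and the retinol-binding protein, was higher in every animal, 4.04, 3.83 and 3.64 on day 0 and 4.24, 4.17 and 4.05 on day 7, and the groups only just missed each other (0.31 ± 0.10, adjusted p = 0.457). F2, prothrombin, was also without overlap (0.31 ± 0.09), and ASGR1, a receptor that clears desialylated glycoproteins, was higher in every animal (0.48 ± 0.11, adjusted p = 0.382). Coagulation (15 genes, median 0.04) and complement (19 genes, 0.03) had medians of -0.11 and -0.10 under quantile normalization.

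Acute-phase genes split by gene. Of 17 tested, 9 had a positive change and the median was 0.04, yet HP and LTF held the largest differences of the list. HP encodes haptoglobin, the haemoglobin-binding protein used in cattle as a marker of inflammation. HP lay at 2.16, 3.77 and 1.69 on day 0 and at -0.03, 2.90 and 0.43 on day 7, lower in every animal by 2.71-fold on average, with overlap because animal 61 was high on both days (-1.44 ± 0.27, adjusted p = 0.371). LTF, lactoferrin, an iron-binding protein of neutrophil granules and of secretory epithelia, went from 1.20, 3.17 and 1.73 to -0.46, -0.13 and 0.91, lower without overlap (-1.93 ± 0.49, adjusted p = 0.398). The LTF change was -1.24 without animal 61. PTX3, a pattern recognition protein, was lower in every animal (-0.98 ± 0.36), with the day 7 level of animal 58 at that array's lowest shared value. SAA3 (-0.38), LBP (-0.30), FGA (-0.30), HAMP (-0.35) and C3 (-0.20) had negative means without the same sign in all 3 animals. SERPINA3 (0.19) and the transcription factor CEBPB (0.37 ± 0.10, adjusted p = 0.398) were higher in every animal.

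LTF is itself 1 of the 10 neutrophil markers in the inner rows. The summed level of the 10 ranged from 6.73 to 14.2 on day 0 and from 5.08 to 5.83 on day 7. The sum of the 9 without LTF was 4.44, 5.18 and 3.74 in animals 58, 61 and 66 on day 0 and 4.36, 4.92 and 3.66 on day 7, slightly lower in each animal. Of the 6 measured on every array, LTF included, 3 had a positive and 3 a negative change, with a median of 0.01. CAMP and CATHL1 were not well above background on any array. ITGAM (-0.49 ± 0.12) and S100A12 (-0.26 ± 0.11) were lower in all 3 animals while NCF1 (0.33 ± 0.16) was higher. ITGAM was well above background on no day 7 array, with animal 58 at that array's lowest shared value.

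PIGR, the receptor that carries polymeric immunoglobulin across epithelia, was lower without overlap, from 0.22, 0.63 and 0.42 to -0.58, -0.53 and -0.31 (1.86-fold lower, -0.90 ± 0.13, adjusted p = 0.268). JCHAIN, the chain that joins polymeric immunoglobulin, was lower without overlap too, from -0.51, -1.07 and -0.85 to -1.08, -1.59 and -1.20 (-0.48 ± 0.10, adjusted p = 0.382). The heavy chain gene IGHM (-0.02) and the B cell genes CD79A and BLK (0.11 each) showed no such difference. In all, 168 genes (5.31%) were lower without overlap, and 24 (0.758%) by at least 1.5-fold.

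Retinoid genes are the ones closest to a provitamin A carotenoid. Of 54 genes listed, 37 are on the array, 23 in the inner rows and 16 were tested. Their median was 0.06, or -0.07 under both quantile scalings. The brightest group, where 9 of the 16 lie, had a median of -0.05 under both quantile scalings. Among the nuclear receptors, RARG had the largest difference: -1.91, -1.57 and -2.36 on day 0 and -3.05, -2.21 and -3.36 on day 7. It was lower in all 3 animals by 1.91-fold on average, although the day 7 level of animal 61 lay above the day 0 level of animal 66 (-0.93 ± 0.13, adjusted p = 0.268). RARA, the broadly expressed retinoic acid receptor, was lower in every animal as well, from 1.78, 2.0 and 2.18 to 1.60, 1.44 and 1.98 (-0.31 ± 0.12, adjusted p = 0.51). RARB, itself a textbook target of retinoic acid, lay at 0.15, 0.14 and 0.45 and then at -0.29, 0.25 and 0.40 (-0.13 ± 0.14). RXRA, the shared partner of these receptors, was lower in animals 58 and 61 and higher in animal 66 (-0.22 ± 0.18).

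CYP26A1, the hydroxylase that clears retinoic acid and is another textbook target of it, lay at -0.71, -0.34 and -1.08 on day 0 and at -1.18, -0.87 and -0.98 on day 7. It was lower in animals 58 and 61 and slightly higher in animal 66 (-0.30 ± 0.16, adjusted p = 0.606). DHRS4, a reductase acting on retinal, was higher without overlap, from 6.07, 6.05 and 6.24 to 6.50, 6.37 and 6.35 (0.29 ± 0.11, adjusted p = 0.51). The other reductases DHRS3 and RDH14 had changes of 0.08 and 0.07, the retinal dehydrogenase ALDH8A1 0.09, and the carboxylesterase CES1 0.18. The cellular binding proteins CRABP1 and FABP5 differed by 0.13 and 0.09, each by less than its standard error. CD36, which can take up carotenoids, differed by 0.05 ± 0.10. BCO1, the enzyme that cleaves provitamin A carotenoids symmetrically, was not well above background on any array, nor were CRABP2, RDH8, RDH12, DHRS9 and RXRG. STRA6, the membrane receptor for retinol-binding protein, did not meet the condition for testing. At an unadjusted p under 0.05, DHRS4 and TTR were higher and RARG lower, against 3.35% and 5.84% of all genes. The signs of ALDH8A1, CES1, DHRS3, CRABP1, FABP5, CD36 and RARB turned under at least 1 alternative setting.

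Oxidative phosphorylation genes had mostly small positive changes with the 75th percentile, and tricarboxylic acid cycle genes had both signs. Of 54 oxidative phosphorylation genes tested, 49 had a positive change and 30 were higher in all 3 animals, with none lower in all 3. That share stands beside 13.8% of all genes and 24.8% of the brightest group, in which 42 of the 54 lie. The median was 0.12, with 0.07, 0.17 and 0.14 in animals 58, 61 and 66, and 0.03 under both quantile scalings, against -0.05 for all genes under either. COX4I1, a subunit of cytochrome oxidase, shows the scale of it: 4.59, 4.62 and 4.64 on day 0 and 4.78, 4.83 and 4.77 on day 7 (0.18 ± 0.09, adjusted p = 0.59). The largest change in the list was in COX6A2, the form of a cytochrome oxidase subunit found in striated muscle (1.27 ± 0.29). It alone of the 54 had an unadjusted p under 0.05, beside 9.19% of all genes. However, it was dim and well above background on only 2 day 7 arrays. The liver form COX6A1 differed by 0.25 ± 0.12. Of 14 tricarboxylic acid cycle genes, 8 had a positive and 6 a negative change, from -0.28 for PC, pyruvate carboxylase, to 0.33. SUCLG1 (0.33 ± 0.09) and MDH1 (0.27 ± 0.12) were higher without overlap. IDH2 differed by -0.22 ± 0.14, and the list's median was 0.10. Of 38 cytosolic ribosomal proteins, 32 had a positive change and 12 were higher in all 3 animals; their median of 0.08 became -0.07 under both quantile scalings, and 31 lay in the brightest group.

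**Figure D3:**
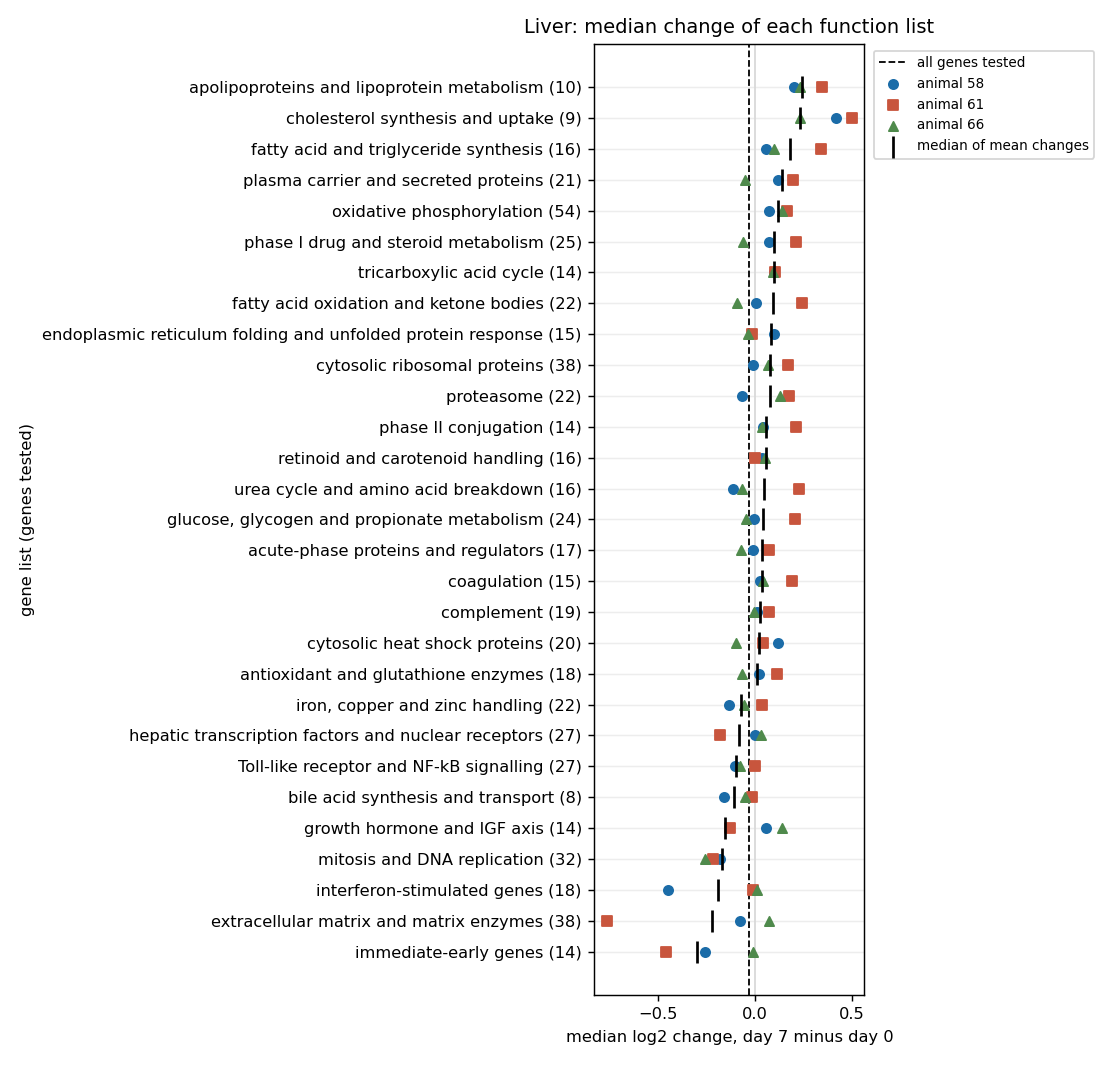
Median log2 change of the tested genes in 29 function lists, for each animal (coloured symbols) and for the mean change of the 3 animals (black bars), with the median of all genes tested as a dashed line. Apolipoproteins and cholesterol synthesis lay at 0.24 and 0.23, and extracellular matrix and immediate-early genes at -0.22 and -0.30, with animal 61 lowest for both.

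Detoxification, nitrogen, glucose and bile acid genes had mostly small changes. Of 25 phase I enzymes, 3 were higher and 2 lower at an unadjusted p under 0.05, against 3.35% and 5.84% of all genes. Those higher were ADH1C, an alcohol dehydrogenase (0.50 ± 0.17), AOX1, aldehyde oxidase (0.35 ± 0.12), and MAOB (0.30 ± 0.10). Those lower were MAOA (-0.67 ± 0.21) and CBR3 (-0.33 ± 0.10). Each ran the same way in every animal. Of 14 conjugating enzymes 1 had an unadjusted p under 0.05, beside 9.19% of all genes: MGST1, a microsomal glutathione transferase (0.35 ± 0.13). GPX4, which reduces lipid hydroperoxides, was higher by nearly the same amount in each animal, from 0.92, 0.92 and 1.23 to 1.20, 1.18 and 1.48 (0.26 ± 0.09, adjusted p = 0.496), while SESN2, a stress-induced regulator, was lower (-0.37 ± 0.12). HGD, which breaks down tyrosine, was without overlap, 6.68, 6.71 and 6.71 against 6.93, 6.95 and 6.93 (0.24 ± 0.09). AHCY, the hydrolase of S-adenosylhomocysteine, had a change of -1.03 ± 0.51 that came from animal 61 (4.84 to 2.28). Of 24 glucose and propionate genes none had an unadjusted p under 0.05, beside 9.19% of all genes. PCK1, the cytosolic gluconeogenic enzyme, differed by 0.07 ± 0.13. Of 22 genes of fatty acid oxidation, SLC22A5, the carnitine transporter, was lower without overlap (-0.38 ± 0.09, adjusted p = 0.382). ABCG8, part of the transporter that moves sterols into bile, was lower in every animal, from -1.17, -0.88 and 0.58 to -1.70, -1.22 and -0.07 (-0.51 ± 0.11, adjusted p = 0.382), and CYP8B1, the enzyme of cholic acid synthesis, differed by 0.20 ± 0.14.

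Immediate-early genes, which respond within minutes to stress and growth signals, leaned lower. Of 14 tested, 11 had a negative change and 6 were lower in all 3 animals, beside 19.1% of all genes, and the median was -0.30. Over the 10 that were well above background on all arrays, 5 were lower in all 3 animals, beside 17.2% of all such genes, and the median was -0.20. DUSP6, a phosphatase that restrains ERK signalling, went from 2.50, 2.23 and 3.02 to 1.97, 1.72 and 0.88, lower without overlap (-1.06 ± 0.37, adjusted p = 0.499). IER2 (-0.47 ± 0.11) was lower without overlap and ATF3 (-0.53 ± 0.11) in every animal. FOS had a mean change of -1.35 ± 0.56, most of it in animal 61, where it went from -2.35 to -5.24. The day 7 level of FOS in animal 58 was that array's lowest shared value. BTG1, an antiproliferative gene, was higher in every animal (0.36 ± 0.10).

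Interferon-stimulated genes leaned lower, most in animal 58. Of 18 tested, 15 had a negative change and 4 were lower in all 3 animals, beside 19.1% of all genes. Those 4, IFIT3, XAF1, CXCL10 and IRF1, each had an unadjusted p under 0.05, against 5.84% of all genes lower at that level. The per-animal medians were -0.45 in animal 58, -0.01 in animal 61 and 0.01 in animal 66, and without animal 58 the list's median was -0.05. CXCL10, a chemokine for T cells, was lower in every animal (1.34, 0.76 and 0.35 to 0.48, 0.60 and -0.20; -0.52 ± 0.16, adjusted p = 0.455), and IRF1 was lower without overlap (-0.27 ± 0.09). IFIT3, well above background on 2 day 7 arrays, and XAF1 differed by -0.47 ± 0.14 and -0.30 ± 0.10. MX1 and RSAD2 differed by -0.35 ± 0.24 and 0.10 ± 0.19. The neutrophil-attracting chemokine CXCL3 went the other way, from 2.79, 1.71 and 2.48 to 4.31, 2.20 and 2.89 (0.81 ± 0.25, adjusted p = 0.457), with most of it in animal 58.

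Of 27 tested genes that act in NF-kB and Toll-like receptor pathways, 12 had a positive change, 5 were lower without overlap, beside 5.31% of all genes, and 1 was higher without overlap, beside 3.54%. Those lower were the adaptor TICAM1 (-0.38 ± 0.12), the receptor TLR6 (-0.27 ± 0.09), the adhesion protein ICAM1 (-0.31 ± 0.12), the cytokine TNF (-0.18 ± 0.10) and the chemokine CXCL5 (-0.71 ± 0.29), the last with animal 58 at that array's lowest shared value. The kinase IRAK1 was higher (0.20 ± 0.10). The list's median was -0.10, or 0.00 over the 21 well above background on all arrays. DDIT3, a transcription factor of the unfolded protein response, was lower without overlap (-0.38 ± 0.14), while the chaperone HSP90AA1 was higher without overlap, from 3.79, 3.53 and 3.52 to 3.95, 3.81 and 3.91 (0.28 ± 0.10, adjusted p = 0.504). Of 8 T and NK cell markers, 7 had a negative change and 3 were lower in all 3 animals, with a median of -0.19, but 4 of the 8 entered through day 0 alone, those 3 among them. Over the other 4 the median was -0.05. CD3G, a chain of the T cell receptor complex, lay at -4.59, -4.41 and -4.50 and then at -5.89, -4.67 and -4.88 (-0.64 ± 0.23). CD6 (-0.58 ± 0.22), with animal 58 at that array's lowest shared value, and KLRD1 (-0.43 ± 0.16) were lower in every animal with overlap, whereas CD3E of the same complex was higher in every animal (0.36 ± 0.14).

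In the growth hormone axis the summary depended on how it was taken. The median of the 14 mean changes was -0.15, the per-animal medians were 0.06, -0.13 and 0.14, and the 10 genes measured on every array had a median of 0.08. SOCS2, a feedback inhibitor induced by growth hormone, was higher in every animal, from 3.25, 3.49 and 2.84 to 3.34, 3.86 and 3.59 (0.40 ± 0.16, adjusted p = 0.51), and so was GHR, the receptor (0.26 ± 0.12). IGF1 was well above background on 1 day 7 array (-0.37 ± 0.27). Of 22 genes of iron, copper and zinc handling, 4 had a positive change, with a median of -0.07. FTL, ferritin light chain, differed by 0.16 ± 0.09 with a sign that turned under quantile scaling.

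Mitosis genes leaned lower and were dim. Of 32 genes of mitosis and DNA replication tested, 26 had a negative change and 16 were lower in all 3 animals, beside 19.1% of all genes. In the dimmest group, where 15 of the 32 lie, 26.8% of genes were lower in all 3 animals and 27.6% had a positive change. Moreover, 12 of the 32 entered the test through day 0 alone and so had to be dim on at least 1 day 7 array. Over the 20 that were well above background on all arrays, 15 had a negative change and 8 were lower in all 3 animals, against 17.2% of all genes measured on every array, and the median was -0.08. CCNB1, the cyclin that starts mitosis, was well above background on 3 day 0 and 2 day 7 arrays and lay at -4.80, -3.69 and -3.26 and then at -5.97, -4.73 and -5.13 (-1.36 ± 0.19, adjusted p = 0.268). Its kinase partner CDK1 differed by -1.28 ± 0.18, and after normexp with quantile normalization the changes were -0.58 for CCNB1 and -0.43 for CDK1. Among those measured on every array, SPC24, a kinetochore protein, was lower without overlap, from -2.05, -2.09 and -1.72 to -2.58, -2.59 and -3.24 (-0.85 ± 0.24, adjusted p = 0.428), as was STMN1, a microtubule destabiliser (-0.56 ± 0.19). RFC3 (0.23), RRM1 (0.27), AURKA (0.34) and PLK4 (0.34) had positive changes.

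Stellate, biliary and matrix genes were lower mainly in animal 61. Stellate and fibroblast markers (13 tested) had medians of -0.03, -0.93 and 0.43 in animals 58, 61 and 66. Their median over mean changes was -0.21, and 0.13 without animal 61. Biliary markers (8 tested) had medians of -0.10, -1.30 and 0.27, with -0.36 for the mean changes and 0.07 without animal 61. EPCAM, an adhesion protein of the bile duct lining, was at -1.09, 0.62 and -0.88 on day 0 and at -1.17, -1.15 and -0.92 on day 7, so the day 0 sample of animal 61 stood above the other 5 arrays. COL1A2, a chain of type I collagen, showed the same in its values: -6.14, -2.29 and -5.39, then -6.88, -5.37 and -4.61. Its -6.88 in animal 58 is that array's lowest shared value. The 38 matrix genes had a median of -0.22, and 0.01 without animal 61. Endothelial markers (11 tested) were all negative, with a median of -0.30 and -0.04 without animal 61. ERG, an endothelial transcription factor, was lower without overlap (-0.36 ± 0.13), as was SOX18 (-0.54 ± 0.21). Kupffer cell markers (12 tested) had a median of -0.10, and their summed level ranged from 62.1 to 71.6 on day 0 and from 68.5 to 73.3 on day 7.

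**Figure D4:**
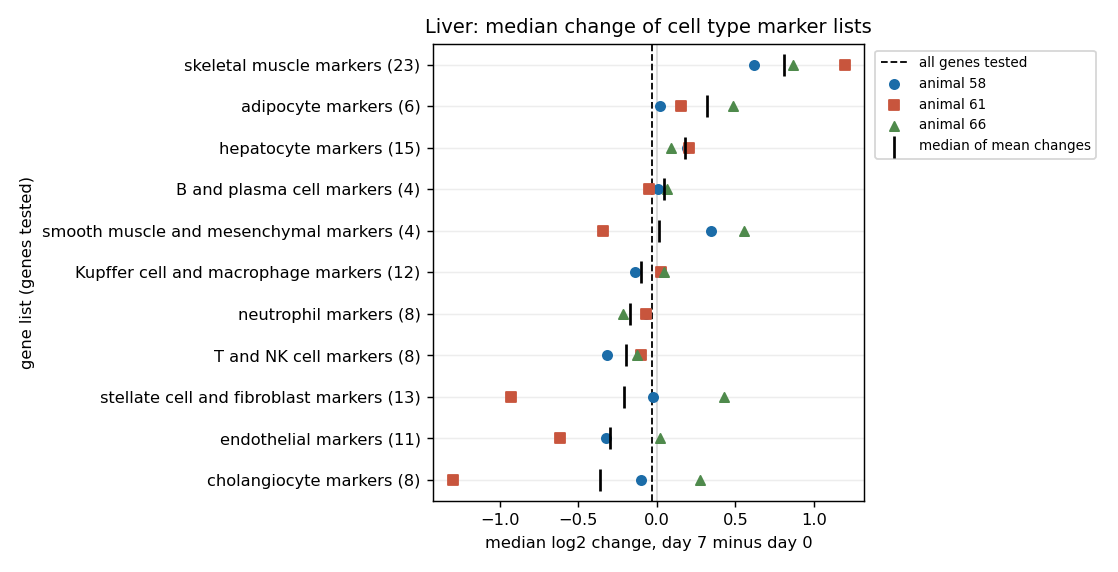
Median log2 change of marker lists of 11 cell types, for each animal (coloured symbols) and for the mean change of the 3 animals (black bars), with the median of all genes tested as a dashed line. Skeletal muscle markers lay at 0.81 and above 0 in each animal, while stellate, endothelial and cholangiocyte markers were lowest in animal 61.

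Skeletal muscle markers, of which TPM1 and DES are also made in other cells, had the largest median of any list (0.81, or 0.34 after normexp with quantile normalization). Of 76 markers listed, 47 are on the array, 31 in the inner rows and 23 were tested; 7 of the 12 genes that entered through day 7 alone are among them. Those 7 had to differ, since they passed only through the day on which they are high. With them, 19 of 23 had a positive change, 15 were higher in all 3 animals (13.8% of all genes), 14 without overlap (3.54%), and 12 by at least 1.5-fold as well (0.569%). Over the 13 measured on every array, 11 had a positive change, 7 were higher in all 3 animals, beside 15.1% of all such genes, and the median was 0.43. The summed level of the 31 ranged from 10.5 to 12.7 on day 0 and was 14.0, 30.6 and 17.1 on day 7 in animals 58, 61 and 66. On day 0, ACTA1, MYL1, TNNC1, TNNT3, SLN, MYH1 and MYH7 all lay at -3.67 or lower, so other members made up most of that sum. The sum was not recomputed without the bright members.

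The thin filament and myosin genes led. ACTA1, skeletal α-actin, was well above background on 2 day 0 arrays and lay at -6.63, -3.67 and -8.33, against 0.95, 3.0 and 0.97 on day 7 (7.85 ± 0.52, adjusted p = 0.0934). MYL1 encodes a light chain of fast-twitch myosin. It was well above background on no day 0 array and at -0.75, 0.04 and -1.38 on day 7, at least 62.3-fold higher (adjusted p = 0.0934). This bound sets the day 7 mean against, per day 0 array, the higher of the probe's own level and the dimmest signal well above background. TNNT3, the fast troponin T whose probe is printed above, lay at -8.43, -6.43 and -8.32 and then at -2.89, -2.32 and -3.82 (4.71 ± 0.29, adjusted p = 0.0934), and was well above background on 1 day 0 array. TNNC1, the troponin C of slow and cardiac muscle, was well above background on 1 day 0 array as well and lay at -6.57, -6.64 and -6.74, against -0.83, 1.94 and 0.04 on day 7 (adjusted p = 0.125). Where day 0 levels are not well above background, the size of a change is not measured. After normexp with quantile normalization the changes were 5.23 for ACTA1 and 3.45 for MYL1. ACTA1, MYL1 and TNNT3 were the 3 probes with an adjusted p under 0.1. Each entered the test through day 7 alone, the day on which it is high, so its p-value is no independent support for a difference.

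The myosin heavy chains MYH7 and MYH1 did not run in the same order over the animals. MYH7, the slow myosin heavy chain, was highest on day 7 in animal 61 (1.82, against -1.18 in animal 58 and -0.60 in animal 66), and was well above background on all 6 arrays (5.15 ± 0.52, adjusted p = 0.19). MYH1, a fast myosin heavy chain, was highest on day 7 in animal 58 (-1.30, against -4.56 and -5.78), at least 6.84-fold higher than on day 0. The fast-fibre genes MYL1 (0.04) and TNNT3 (-2.32) were highest on day 7 in animal 61, as MYH7 was. SLN, sarcolipin, which restrains the calcium pump, was at least 7.84-fold higher. TPM1, a tropomyosin made in muscle and elsewhere, moved from -2.17, -2.63 and -2.58 to -1.18, -1.12 and -1.34 (1.24 ± 0.13, adjusted p = 0.196).

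The remaining muscle markers had smaller differences. ACTN2 (1.96), COX6A2 (1.27), MYF6 (0.88), LDB3 (0.81), ACTN3 (0.52) and PYGM (0.43) were higher without overlap, and MYOZ1 (0.77) in every animal with overlap. ACTN2 was well above background on only 2 day 0 arrays and COX6A2 on only 2 day 7 arrays. The rest of those tested also overlapped between the days: DES 0.41 ± 0.25, CKMT2 0.26 ± 0.22, HSPB6 0.11 ± 0.13, COX7A1 0.01 ± 0.12, MYOG -0.06 ± 0.18, TCAP -0.10 ± 0.09, TPM3 -0.10 ± 0.11 and FBXO32 -0.49 ± 0.30. MYOM2, CACNA1S and TTN were not well above background on any array, and NEB, CASQ1, TRIM63, SMPX and CSRP3 did not meet the condition for testing. Smooth muscle markers (4 tested) had a median of 0.01 with no gene higher or lower in all 3 animals. The muscle median was 0.62, 1.20 and 0.87 in animals 58, 61 and 66, and that of the cholesterol list was 0.42, 0.50 and 0.23. Both were highest in animal 61, but animals 58 and 66 ranked in opposite order. The brightest group of tested genes was also highest in animal 61, with medians of 0.005, 0.14 and 0.02. The part of muscle RNA in the other differences was not tested.

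**Figure D5:**
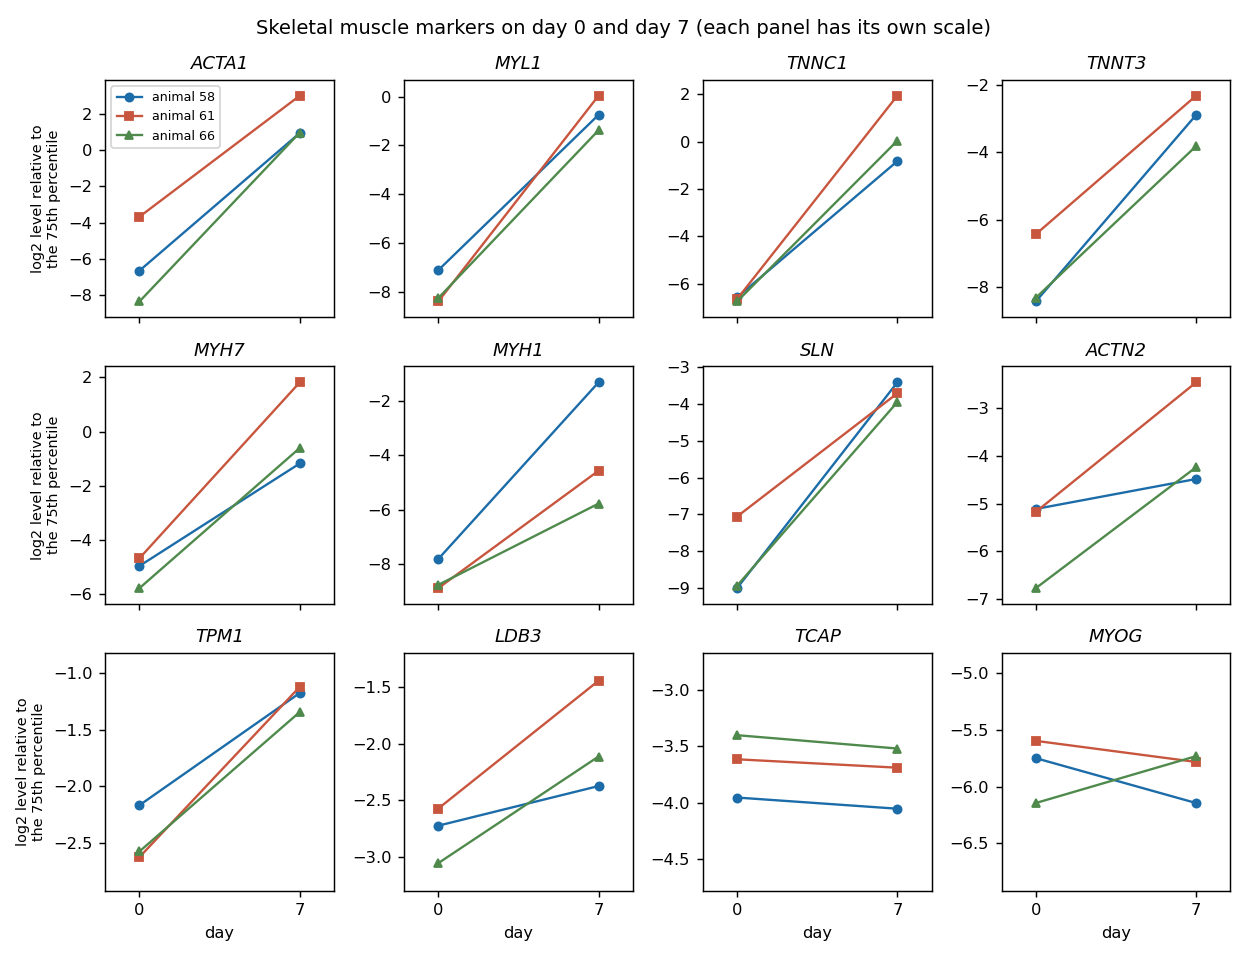
Log2 level relative to the array's 75th percentile on day 0 and day 7 for 12 skeletal muscle markers, 1 line per animal, each panel with its own scale. All lines of ACTA1, MYL1, TNNC1, TNNT3, MYH7, MYH1 and SLN ended higher, but only MYH7 was well above background on all 3 day 0 arrays and MYL1, MYH1 and SLN on none, so the heights of those lines are no measured folds; TCAP and MYOG differed by -0.10 and -0.06.

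Among genes in no list, those higher in every animal and measured on every array included ABCD4 (1.08 ± 0.33), UBE2T (1.04 ± 0.19) and PNRC2 (1.03 ± 0.30). Among lower values, NOCT, a circadian gene of the liver, went from -1.25, -0.99 and -1.42 to -2.62, -1.63 and -2.16, without overlap (-0.92 ± 0.17, adjusted p = 0.371). DLL4, a Notch ligand, had a change of -1.69 ± 0.25 (adjusted p = 0.268) and was well above background on 1 day 7 array. Across the comparison 112 genes (3.54%) were higher and 168 (5.31%) lower without overlap, and 18 (0.569%) and 24 (0.758%) by at least 1.5-fold as well.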

How the data were processed

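Spot intensities are the processed signals deposited by the authors; per the file headers, Agilent Feature Extraction 9.5.1.1 (9.5 per the submitters' processing notes) subtracted the background and an additive spatial trend and set low values to surrogates. Per the file headers, intensities of the spot mean and the background median are uncorrected, and the deposited flags, probe letters and grid positions are other columns. The authors' deposited log2 values correlate at 1 with log2 of the processed signal and lie 0.0066 to 0.0112 from the values used here in the median, so their scale and direction are known. The total RNA was labelled with Cy3 after linear amplification, per the labels' protocols. The number of arrays limits the precision.

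Control spots and outlier spots (1 to 4 per array) were left out; no spot was saturated. Log2 of each processed signal, less the 75th percentile of its array over all rows, was averaged over the spots of a probe. Names came from the file's accession (1468 probes), gene number (1155), symbol (871) or stated similarity to a human gene (579), through an NCBI RefSeq gene table of ARS-UCD2.0 used for names alone. No genome build is named in those sources, and no coordinates are printed.

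The days were compared in limma 3.58.1 under R 4.3.3 (lmFit, then eBayes; two-sided), with the animal as a block, since the labels name the same animal on both days. Paired deviations correlated at 0.673, 0.361 and 0.625, against at most -0.006 between animals. The deviations were taken from the mean of each day, so the values between animals are negative in part by construction. The fit was tested on simulated data. The named genes are, per direction, the 12 with the largest change among those well above background on all arrays, the same way in all animals and with an unadjusted p under 0.05, 8 measured on only some arrays of a day, and members of each gene list with the smallest p or on which its biology turns. Members, lists and rules were chosen with earlier results of these data known, so the list counts are descriptions. Alternatives covered the block, scaling, background correction, filter, rows, probes, weights, prior and each animal left out. Some items are not reported here.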

Additional observations from a re-analysis of the deposited data

How the results depend on the processing

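Probes past an adjusted p of 0.05 numbered 0 in the reported fit and 0 with the 75th percentile over the inner rows, the authors' values, quantile-normalized processed signals, either other filter, rows 60 to 130, the row trend removed and array weights. There was 1 without the animal as a block, 1 after normexp with quantile normalization, 2 with an intensity trend and robust prior, 3 at a threshold of 0.1, 0 to 1 when an animal was left out, and 435 over all rows (292 higher). The 627 probes at an unadjusted p under 0.05 became 245 without the block, 392 in rows 60 to 130, 1955 over all rows and 461 to 608 without an animal. The 86 probes without overlap and of at least 1.5-fold became 23 after normexp with quantile normalization, 36 when measured on every array, 921 without a filter (862 higher), 50 in rows 60 to 130, 692 over all rows and 165 to 300 without an animal. Of 29 function lists, 20 had a median above that of all genes, and 15 after either quantile scaling.

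Of 228 named genes, 30 changed sign under at least 1 alternative. Without animal 61, 16 values turned. A total of 16 genes passed the adjusted threshold under at least 1 alternative, all of them over all rows. Besides, ACTA1 passed after normexp with quantile normalization and without animal 66, MYL1 without the block and without animal 61, and TNNT3 with the robust prior. ACTA1, MYL1 and TNNT3 had entered the test through day 7 alone, so these passes are no independent support.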
